A study of Rattus norvegicus with 4 samples.

Results

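Calcium buffers and neuronal calcium sensors are small EF-hand proteins that bind calcium ions inside neurons, and 8 of their genes were followed here: the buffers Calb2 and Pvalb and the sensors Hpca, Hpcal1, Hpcal4, Ncald, Ncs1 and Vsnl1. The genes were chosen by name, with earlier results of these data known. Each was found on the array by the RefSeq accession of its probe, so that all 8 were measured among 15443 named genes. Each gene had 1 probe, which was well above background and not saturated on all 4 arrays, and all 8 were therefore among the 11624 genes well above background throughout. Probes were printed as 2 spots, except that of Vsnl1, which had 10.

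Gene expression was measured in male rats on 1-colour Agilent arrays, each of which takes up the Cy3-labelled RNA of a single sample. Behaviour had been scored in 106 rats by forced swimming, a test that reads time spent immobile in water as depressive-like. Rats of the depressive group and rats of average behaviour, called control, each gave 1 pool of equal RNA amounts from 4 animals per tissue. The 4 groups were thus depressive cerebellum, control cerebellum, depressive prefrontal cortex and control prefrontal cortex, with 1 array each on 1 slide. All rats of every group had swum in it 1 week before they were killed under isoflurane and perfused with saline. Slices 1 mm thick were taken 9.8 to 10.8 mm behind the bregma for the cerebellum and 3.2 to 4.2 mm in front of it for the prefrontal cortex. The strain, the age and whether both tissues came from the same 4 rats are not given in the sources used here. Each group is a slice of mixed cell types pooled over animals, so fewer cells of a type and less RNA per cell cannot be told apart, and the spread between rats was not measured.

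Buffers such as calretinin (Calb2) and parvalbumin (Pvalb) take up calcium ions as they enter the cell and so shape how high and how long the calcium signal lasts. Sensors of the hippocalcin, visinin-like and frequenin families change shape when they bind calcium, most of them exposing a fatty acid tail that brings them to membranes, where they act on channels, receptors and kinases. In the cerebellum, calretinin is known from granule cells and unipolar brush cells and parvalbumin from Purkinje cells and molecular layer interneurons. In the cerebral cortex, both buffers are known as markers of separate classes of inhibitory interneurons, whereas hippocalcin is abundant in pyramidal cells.

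Before any comparison, the arrays were tied to their samples. The deposited value table is keyed by sample, and each of its columns correlated with a single scanner file at 0.999939 or more over 23207 probes. For the depressive cerebellum and the control prefrontal cortex this was the file linked to the other sample, while their own linked files gave 0.933. The match to the table was followed, and the counts with files as linked stand beside the results below. The descriptions of the depressive samples also name the other tissue, and the sample titles were followed there. Markers of the labelled tissue followed this reading, since the 5 fitted Purkinje cell markers and the 6 fitted granule cell markers were higher in cerebellum and the 5 fitted markers of cortical excitatory neurons were lower there. Among the defining markers, Fat2 (granule cells) was not well above background on the prefrontal cortex arrays. Tbr1 (cortical excitatory neurons) was not on the cerebellum arrays. These markers separate the tissues and cannot tell a depressive from a control array. The scanner's own noise estimate, the additive error, was highest for depressive cerebellum, at 6.99, and between 4.02 and 4.20 for the other arrays, and the 4 red blood cell genes were higher on the depressive array in both tissues, with medians of 2.32 (cerebellum) and 2.08 (prefrontal cortex) on the log2 scale. With so few arrays, their number limits the precision.

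The first comparison asked how the 8 genes are divided between the tissues. Calb2, Hpcal1 and Pvalb were higher in cerebellum, by 53.0-fold, 18.3-fold and 5.30-fold. Hpcal4, Ncald, Hpca and Ncs1 were lower in cerebellum, by 15.3-fold, 11.0-fold, 6.56-fold and 2.69-fold. Vsnl1 was the exception, with a level in cerebellum 1.06-fold that in prefrontal cortex, which did not pass the test. Errors called SE between spots are technical and come from repeat spots of all probes of like brightness, while the gene's own spots are given as such. Levels below are log2 of the processed signal minus the 75th percentile of the array, and a difference of 1 is therefore 2-fold. The test was a limma fit of tissue with state as a block, which takes the depressive and control pools as replicates of a tissue and leaves 1 residual degree of freedom.

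**Figure D1:**
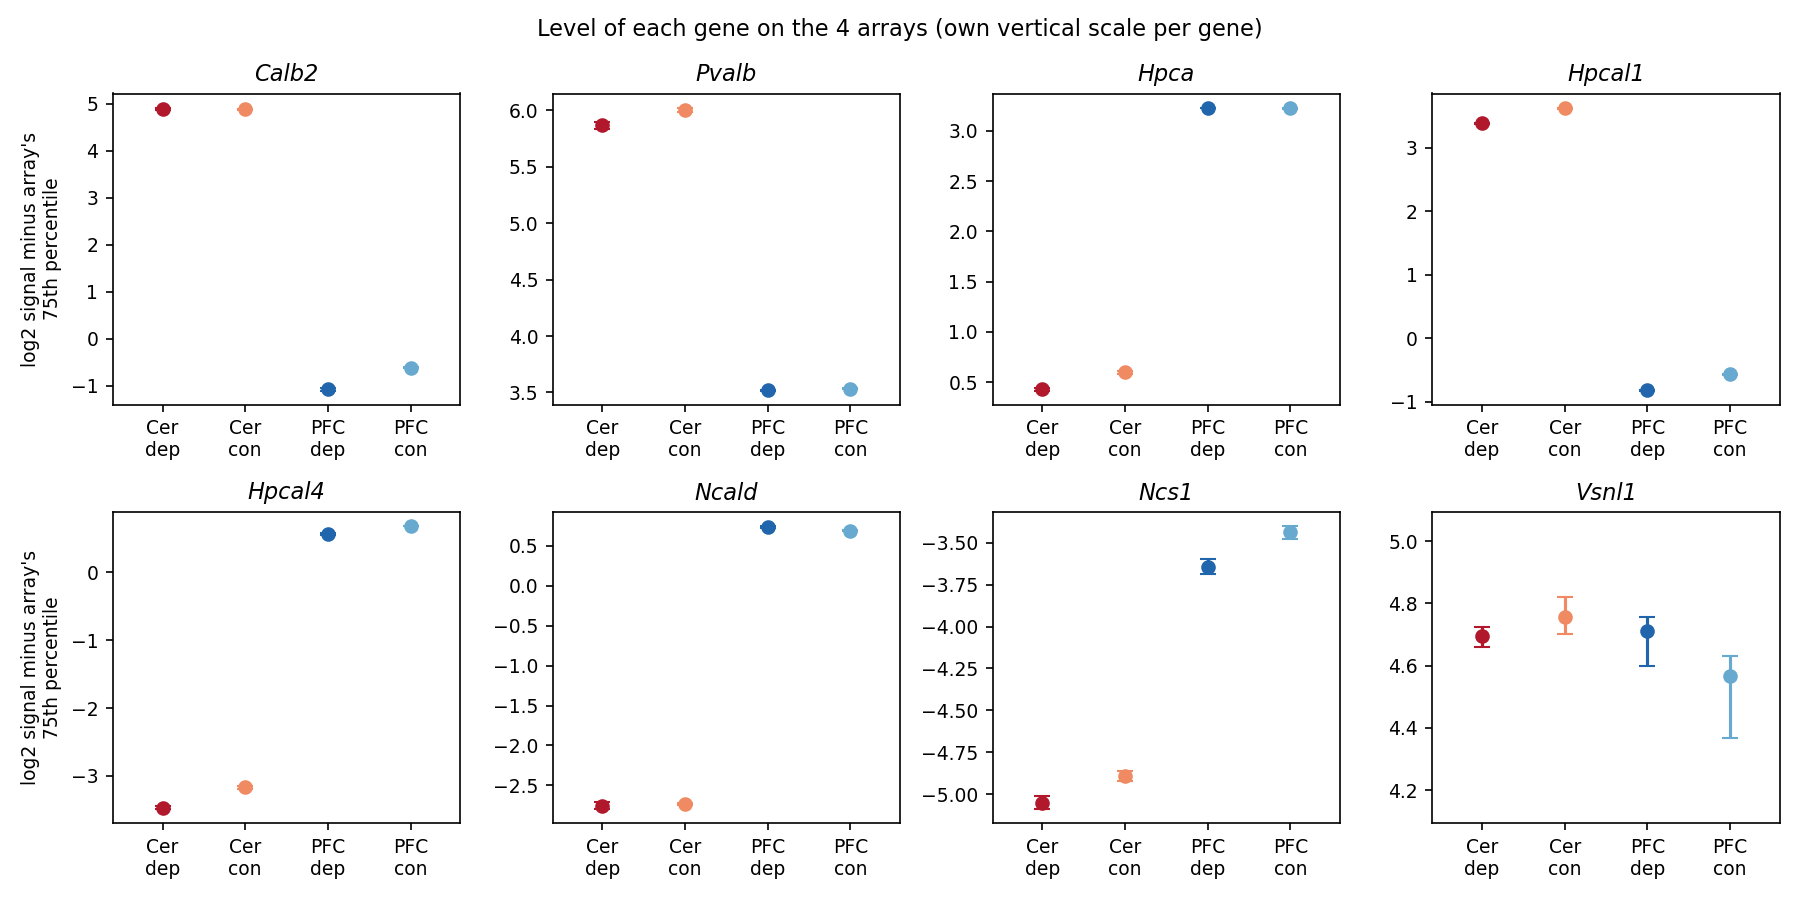
Level of each of the 8 genes on each array (vertical axis, log2 signal minus the array's 75th percentile, with its own scale for each gene), in depressive and control cerebellum (Cer) and depressive and control prefrontal cortex (PFC). Points are means over the spots of the probe and bars run from the lowest to the highest spot: the cerebellum points lie above the prefrontal cortex points for Calb2, Pvalb and Hpcal1, below them for Hpca, Hpcal4, Ncald and Ncs1, and among them for Vsnl1.

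Of the buffers, Calb2 showed the wider gap. Its signal was 130036 in depressive and 118693 in control cerebellum, against 1560.63 in depressive and 2045.2 in control prefrontal cortex. As levels these were 4.90 and 4.88 in cerebellum, against -1.07 and -0.61 in prefrontal cortex. The cerebellum arrays were far above those of the prefrontal cortex, and the cerebellum arrays differed from each other by less than the SE between spots. The fitted difference was 5.73 (SE 0.14, limma adjusted p = 0.000276), which ranked 17 from the top among 11624 genes. Taken within a state, with no test, the level was 62.5-fold higher in cerebellum in the depressive pools and 45.0-fold higher in the control pools.

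Pvalb, the buffer of fast-spiking interneurons and Purkinje cells, had signals of 254694 and 257933 in depressive and control cerebellum, against 37635.6 and 36104.9 in depressive and control prefrontal cortex. Its levels were 5.87 and 6.004 in cerebellum, against 3.52 and 3.53 in prefrontal cortex. The tissues did not overlap, and the prefrontal cortex arrays differed from each other by less than the SE between spots. Its difference of 2.41 (SE 0.06, limma adjusted p = 0.000284) ranked 192 from the top. The level was 5.08-fold higher in cerebellum in depressive pools and 5.54-fold higher in control pools.

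Hpcal1, a visinin-like sensor known from Purkinje cells, was higher in cerebellum. It gave signals of 45621.8 in depressive and 49443.2 in control cerebellum, against 1857.16 in depressive and 2098.64 in control prefrontal cortex. The levels were 3.38 and 3.62 in cerebellum, against -0.82 and -0.57 in prefrontal cortex, so that the gap between tissues was many times the gap between states. The fit gave 4.20 (SE 0.05, limma adjusted p = 0.000174, rank 48 from the top). The fold between tissues was 18.4 in depressive and 18.3 in control pools.

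The sensors Hpca, Hpcal4 and Ncald were all lower in cerebellum. Hpca encodes hippocalcin, which takes part in the slow afterhyperpolarisation that follows a burst of spikes in hippocampal neurons. Hpca signals were 5877.13 and 6076.72 in depressive and control cerebellum, against 30711.9 and 29085.9 in depressive and control prefrontal cortex. On the level scale this was 0.43 and 0.60 in cerebellum, against 3.23 and 3.22 in prefrontal cortex. The prefrontal cortex arrays were high and differed from each other by less than the SE between spots. The fitted difference was -2.71 (SE 0.07, limma adjusted p = 0.000287, rank 271 from the bottom), and the level was 6.97-fold lower in cerebellum in depressive pools and 6.17-fold lower in control pools.

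Hpcal4, which encodes another visinin-like sensor, differed most among the genes that were lower. Its signals were 394.996 and 446.622 in depressive and control cerebellum, against 4830 and 4984.51 in depressive and control prefrontal cortex. Its levels were -3.47 and -3.17 in cerebellum, against 0.56 and 0.68 in prefrontal cortex, with no overlap. The fit gave -3.94 (SE 0.07, limma adjusted p = 0.000219, rank 120 from the bottom). The level was 16.3-fold lower in cerebellum in depressive pools and 14.4-fold lower in control pools.

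Ncald encodes neurocalcin delta, a close relative of hippocalcin. Ncald signals were 647.019 and 605.021 in depressive and control cerebellum, against 5468.56 and 5034.08 in depressive and control prefrontal cortex. The levels were -2.76 and -2.73 in cerebellum, against 0.74 and 0.69 in prefrontal cortex. Within each tissue the arrays lay close together, and between tissues they did not overlap. The difference was -3.46 (SE 0.05, limma adjusted p = 0.000197, rank 163 from the bottom), with 11.3-fold lower levels in depressive and 10.73-fold lower levels in control cerebellum.

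Ncs1, which encodes the frequenin homologue that acts on a phosphatidylinositol kinase and on dopamine D2 receptor desensitisation, was lower in cerebellum and was measured by a dim probe. Its signals were 131.865 and 135.387 in depressive and control cerebellum, against 262.414 and 287.237 in depressive and control prefrontal cortex. The levels were -5.05 and -4.89 in cerebellum, against -3.64 and -3.44 in prefrontal cortex, and the tissues did not overlap. The fitted difference was -1.43 (SE 0.05, limma adjusted p = 0.000469), which ranked 844 from the bottom. With normexp background correction, which compresses dim signals, it was -1.09 and still passed the test.

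Vsnl1 encodes visinin-like protein 1, which is known to raise the surface level of nicotinic receptors with the alpha4 subunit. Its signal over the spots ran from 110434 to 115483 in depressive cerebellum and from 104678 to 113571 in control cerebellum. In prefrontal cortex it ran from 79404.9 to 88477.8 in the depressive pool and from 64280.5 to 77264.5 in the control pool. After scaling, the levels were 4.69 and 4.76 in depressive and control cerebellum, against 4.71 and 4.57 in depressive and control prefrontal cortex, so that the tissues overlapped. The fitted difference was 0.09 (95% confidence interval -0.13 to 0.31, limma adjusted p = 0.350). In the depressive pools the difference was -0.02 (SE between spots 0.03) and in the control pools 0.19 (SE 0.02). Quantile normalization, which moved the median of all genes up by 0.12 in depressive and 0.10 in control pools, gave 0.29 with an adjusted p of 0.0374. Over the other alternatives with the arrays matched to the table Vsnl1 did not pass, and its adjusted p reached 0.876.

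Counted together, 7 of the 8 genes passed the test between tissues, 3 higher and 4 lower in cerebellum. Across all 11624 genes 72.8% passed, 34.7% higher and 38.0% lower, so that passing the test does not set these genes apart. The arrays of the tissues did not overlap for 7 of the 8 genes and for 87.8% of all genes. The sizes were further out, with a median absolute difference of 3.09 over the 8 genes and 0.42 over all genes. Of all genes, 20.3% had a difference of 1 or more in either direction. The 8 genes were chosen with earlier results of these data known, so their sizes and 2-fold counts beside all genes are a description, not a test. Within the depressive pools 7 of 8 genes differed by 2-fold or more, against 24.3% of 12649 measured genes. Of these 3 were higher (9.29% of all genes) and 4 lower (15.0%) in cerebellum. Within the control pools 7 of 8 genes did, against 24.0% of 12859, again 3 higher (9.86%) and 4 lower (14.2%). With scanner files as linked, 0 of 8 passed the test between tissues (smallest adjusted p = 0.641) and 0 of 8 differed by 2-fold in either state.

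**Figure D2:**
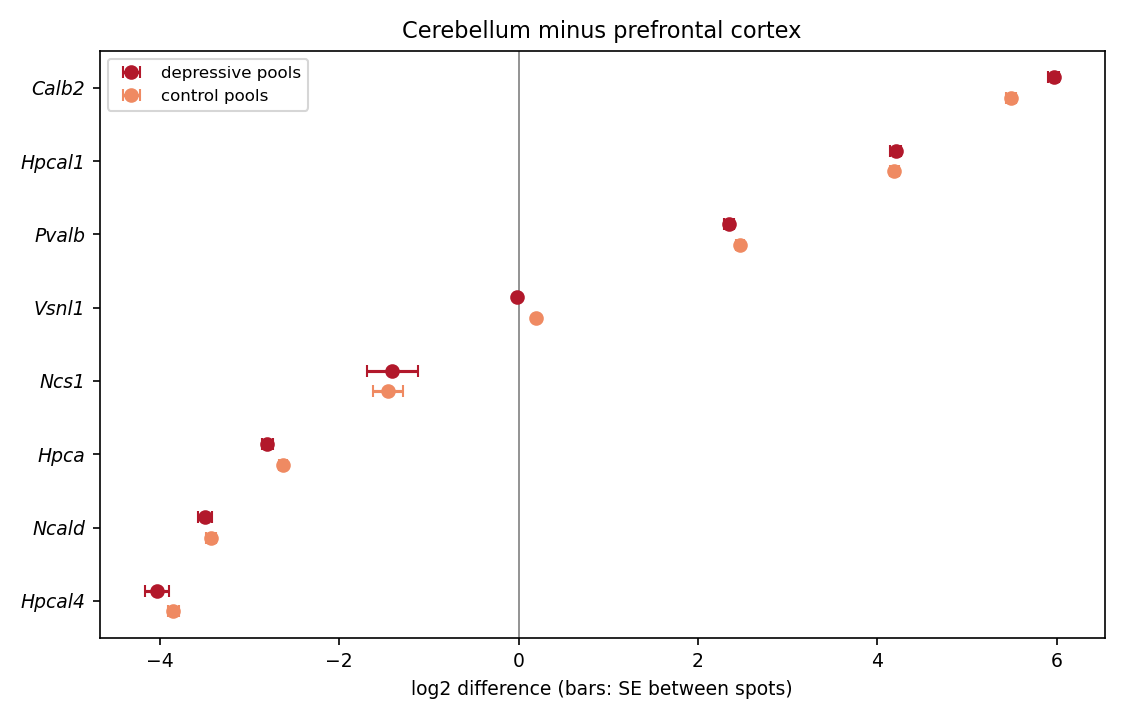
Cerebellum minus prefrontal cortex for each gene (horizontal axis, log2 difference of levels), in depressive pools (upper point of each pair) and control pools (lower point), with bars for the SE between spots. Calb2, Hpcal1 and Pvalb lie right of 0, Ncs1, Hpca, Ncald and Hpcal4 lie left of it, and Vsnl1 lies at -0.02 and 0.19.

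**Figure D3:**
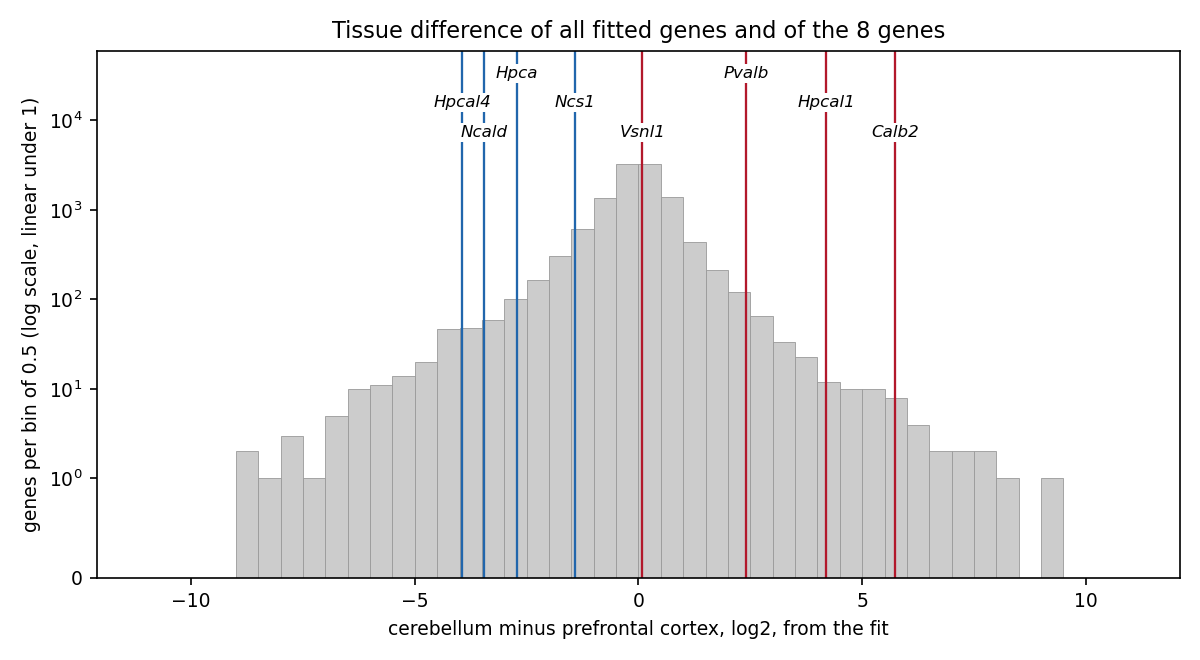
Number of genes (vertical axis, log scale above 1) per bin of fitted cerebellum minus prefrontal cortex difference (horizontal axis, log2), over 11624 genes, with lines at the 8 genes. Calb2 at 5.73 and Hpcal4 at -3.94 lie in the tails, and Vsnl1 at 0.09 lies near the centre.

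Promoter sequences are shown for 4 genes on opposite sides of the tissue difference, Pvalb and Hpcal1 (higher in cerebellum) and Hpca and Hpcal4 (lower). They are RefSeq windows of build GRCr8 that run from 250 bases before to 50 bases after the gene start, read 5′ to 3′ on the strand of the gene. Pvalb lies at chr7:111666240-111666539 on the minus strand, Hpcal1 at chr6:46206644-46206943 on the plus strand, Hpca at chr5:146748309-146748608 on the minus strand and Hpcal4 at chr5:140739658-140739957 on the plus strand. Capitals mark matches to 5 motifs searched on both strands: the TATA box (TATAAA), the GC box (GGGCGG), the CCAAT box (CCAAT), an E-box (CAGATG) and the cyclic AMP element core (TGACG).
Pvalb: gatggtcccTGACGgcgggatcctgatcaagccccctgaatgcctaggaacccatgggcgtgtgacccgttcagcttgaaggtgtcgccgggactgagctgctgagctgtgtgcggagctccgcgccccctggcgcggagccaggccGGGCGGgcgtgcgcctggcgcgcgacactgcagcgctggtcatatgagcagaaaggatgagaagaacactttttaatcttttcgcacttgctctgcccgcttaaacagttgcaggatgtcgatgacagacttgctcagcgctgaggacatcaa
Hpcal1: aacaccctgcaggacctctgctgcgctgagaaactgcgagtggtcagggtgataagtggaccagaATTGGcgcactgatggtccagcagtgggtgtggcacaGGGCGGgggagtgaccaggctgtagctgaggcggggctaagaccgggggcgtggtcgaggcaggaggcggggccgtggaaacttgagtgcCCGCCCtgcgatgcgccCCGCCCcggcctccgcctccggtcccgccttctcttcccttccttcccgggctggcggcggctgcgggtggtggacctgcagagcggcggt
Hpca: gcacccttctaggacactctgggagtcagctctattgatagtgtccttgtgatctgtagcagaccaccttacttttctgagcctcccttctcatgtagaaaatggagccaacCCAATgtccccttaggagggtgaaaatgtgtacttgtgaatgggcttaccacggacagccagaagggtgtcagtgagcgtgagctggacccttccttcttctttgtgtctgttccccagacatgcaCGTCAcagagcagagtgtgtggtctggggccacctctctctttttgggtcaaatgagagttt
Hpcal4: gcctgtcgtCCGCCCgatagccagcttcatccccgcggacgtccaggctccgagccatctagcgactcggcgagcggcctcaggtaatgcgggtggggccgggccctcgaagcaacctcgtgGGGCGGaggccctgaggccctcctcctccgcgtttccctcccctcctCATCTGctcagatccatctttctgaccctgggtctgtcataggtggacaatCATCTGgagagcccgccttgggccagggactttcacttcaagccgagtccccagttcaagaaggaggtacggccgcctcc

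Windows were in the table for 6 of the 8 genes, Calb2 and Ncald being the others. A GC box stood in those of Pvalb, Hpcal1, Hpcal4 and Vsnl1, which is 4 of 6 against 33.1% of 33469 promoters. The Hpcal1 window held 3 such matches, at -148, -58 and -41 from the start, the matches at -58 and -41 on the opposite strand, and a CCAAT box at -185 on the opposite strand. Pvalb had a GC box at -103 and a TGACG match at -241. Hpca had a CCAAT box at -138 and a TGACG match at -12 on the opposite strand, with no GC box. Hpcal4 had a GC box at -128 and another at -241 on the opposite strand. Its E-box matches at -81 and -30 were on the opposite strand too.

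CCAAT matches were found in 3 of the 6 windows (37.5% of all promoters), TGACG in 3 (21.2%) and the E-box in 2 (16.6%), whereas the TATA box letters were found in 0 of 6 (14.2%). No match overlapped another in the windows shown. G and C made up 60.7% of the Pvalb window, 69.0% of the Hpcal1 window, 50.7% of the Hpca window and 65.0% of the Hpcal4 window, against a median of 51.7% over all promoters. Windows both GC-rich and with a GC box were thus those of Pvalb and Hpcal1, higher in cerebellum, and of Hpcal4, lower there. Of the other genes lower in cerebellum, Hpca had neither trait, and Ncs1 had 82.3% G and C without a GC box. Such matches describe the letters only.

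The second comparison asked whether the genes differ between depressive and control pools. None of the 8 genes changed by the test, and none differed by 2-fold in either tissue. The widest differences were those of Calb2 in prefrontal cortex, at -0.46, and of Hpcal4 in cerebellum, at -0.30. Hpcal1 was lower by a like amount in both tissues, at -0.24 in cerebellum and -0.25 in prefrontal cortex. These differences describe 1 pool against 1 pool in each tissue. The limma fit of state takes the cerebellum and prefrontal cortex pools as replicates of a state. Whether both tissues came from the same rats is not given, so the SE of that fit does not measure the spread between rats.

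Calb2 had a signal of 1560.63 in depressive prefrontal cortex, against 2045.2 in control prefrontal cortex. The depressive spots ran from 1532.56 to 1589.21 and the control spots from 2023.63 to 2067.01, so that they did not overlap. The difference in level was -0.46 (SE between spots 0.06), and 4.06% of 12544 genes differed by more in either direction. In cerebellum the difference was 0.01 (SE 0.05), which is within that SE. In the limma fit of state with tissue as a block, Calb2 was at -0.23 (SE 0.14, adjusted p = 0.701).

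Markers of other cells were read beside this value. Of the Purkinje cell markers, 5 of 6 were lower in depressive than in control prefrontal cortex, with a median difference of -0.23. Pcp2, which defines Purkinje cells, had a signal of 277.1 in depressive and 619.5 in control prefrontal cortex, and Ppp1r17 was at least 3.06-fold lower in the depressive pool, where it was not well above background. Their signals, each divided by the array's 75th percentile and summed, came to 21.1 in the depressive and 22.7 in the control pool, a sum carried by Itpr1, which is bright in cortex as well (65247.7 in the depressive and 66099 in the control pool).

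Of the granule cell markers, 3 of 6 measured were lower in depressive prefrontal cortex. Gabra6 had a signal of 44.4 in the depressive and 103.8 in the control pool, and Cbln1 had 302.9 in the depressive and 496.0 in the control pool. The granule cell sums were 4.01 in the depressive and 4.08 in the control pool, carried by Grm4 (11676.9 in the depressive and 11000.1 in the control pool). Of the GABA neuron markers, 5 of 7 were lower in the depressive pool (median -0.11), with sums of 46.7 in the depressive and 50.7 in the control pool. Among them was Vip, a gene of cortical interneurons that overlap those with calretinin, at -0.12.

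The lists of red blood cells (median 2.08), choroid plexus, meninges and oligodendrocytes had larger median differences. Of the choroid plexus markers, 3 of 5 measured were lower in depressive prefrontal cortex (median -1.002), while Kcnj13 (0.57) and Aqp1 (0.96) were higher. The sums of 2.005 in the depressive and 8.34 in the control pool were carried by Ttr. Its signal was 6075.65 in the depressive and 25616.8 in the control pool. All 6 markers of meninges and fibroblasts were higher in the depressive pool (median 0.87). Their sums were 36.9 in the depressive and 18.6 in the control pool, carried by Ptgds. All 6 oligodendrocyte markers were higher as well (median 0.38). Mbp carried their sums of 155.8 in the depressive and 148.5 in the control pool. The 4 anterior pituitary genes were not well above background in depressive prefrontal cortex, and 2 of them were in control prefrontal cortex. The part of these markers in the Calb2 difference was not tested.

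Hpcal1 was lower in the depressive pools of both tissues. In cerebellum its level was 3.38 in the depressive and 3.62 in the control pool (difference -0.24, SE between spots 0.05). In prefrontal cortex it was -0.82 in the depressive and -0.57 in the control pool (difference -0.25, SE 0.06). The spots of the pools did not overlap in either tissue. The limma fit gave -0.24 (SE 0.05) with an unadjusted p of 0.0116 and an adjusted p of 0.641, which did not pass.

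Ncs1 and Hpcal4 were also lower on both depressive arrays without passing the test. Ncs1 was at -0.16 in cerebellum (SE between spots 0.31) and -0.20 in prefrontal cortex (SE 0.12), and the limma fit gave -0.18 (unadjusted p = 0.0301, adjusted p = 0.641). Hpcal4 was at -0.30 in cerebellum (SE 0.14) and -0.12 in prefrontal cortex (SE 0.06), and the limma fit gave -0.21 (unadjusted p = 0.0482, adjusted p = 0.641). The SE between spots is wide for probes as dim as that of Ncs1, and the Ncs1 difference in cerebellum is smaller than it. Both spot pairs of Ncs1 were below 0 there, at -0.17 and -0.15. Spot pairs of a gene lie on the same arrays and share their scaling, so they are technical repeats of 1 difference.

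In cerebellum, differences of like size were seen for Pvalb, at -0.14 (SE between spots 0.05), and Hpca, at -0.17 (SE 0.06). Pvalb in prefrontal cortex (-0.01) and Hpca in prefrontal cortex (0.01) were smaller than the SE between spots, as was Ncald in both tissues (-0.02 in cerebellum and 0.05 in prefrontal cortex). Both spot pairs of Ncald were above 0 in prefrontal cortex, and both of Pvalb were below 0 there. Vsnl1 was at -0.06 in cerebellum (SE 0.02) and at 0.14 in prefrontal cortex (SE 0.02). All 10 spot pairs of Vsnl1 in prefrontal cortex were higher on the depressive array, and 0 of 9 in cerebellum were. These too are technical repeats that share the scaling of their arrays. Over the alternatives with arrays matched to the table, Vsnl1 ran from -0.09 to -0.01 in cerebellum and from 0.12 to 0.21 in prefrontal cortex.

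Marker lists were read in cerebellum too. All 6 Purkinje cell markers and all 7 granule cell markers were lower in depressive than in control cerebellum, with medians of -0.12 and -0.11, against a median of -0.03 over all genes. Their summed scaled signals were 118.0 in the depressive and 127.6 in the control pool for Purkinje cells, and 105.0 in the depressive and 112.6 in the control pool for granule cells. Of 5 measured markers of cortical excitatory neurons, 3 were lower in depressive cerebellum, with Crym and Nrgn both at -0.68 and sums of 4.52 in the depressive and 5.31 in the control pool. All 7 GABA neuron markers were lower as well (median -0.07). They ran from -0.008 for Slc32a1 to -0.70 for Vip, which was not well above background in depressive cerebellum. Of all measured genes, 60.7% were lower in depressive cerebellum.

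The lists of choroid plexus, anterior pituitary and red blood cells differed by more in cerebellum, red blood cells with a median of 2.32. Of the choroid plexus markers, 5 of 6 were higher in the depressive pool (median 0.73), with sums of 170.2 in the depressive and 174.8 in the control pool, carried by Ttr. All 4 anterior pituitary genes were lower, none of them well above background in depressive cerebellum, and Gh1 had a signal of 7.12 in the depressive and 882.2 in the control pool. Meninges and fibroblast markers were higher for 5 of 6 (median 0.14) and oligodendrocyte markers for 4 of 6 (median 0.02). The part of these markers in the differences of Hpcal1, Pvalb, Hpca and Hpcal4 was not tested.

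Over the 8 genes the median difference between states was -0.15 in cerebellum, against -0.03 over all genes, and -0.07 in prefrontal cortex, against -0.01 over all genes. In cerebellum 0 of 8 genes reached 2-fold (1.74% of 12582 genes did), and in prefrontal cortex 0 of 8 (0.821% of 12544). In the limma fit 0 of 8 genes had an adjusted p under 0.05, as did 0.00% of 11624 genes, and the smallest adjusted p over all genes was 0.208. At an unadjusted p under 0.05 there were 3 of 8 genes, namely Hpcal1, Ncs1 and Hpcal4, against 7.79% of all genes. Pvalb, Hpcal1, Hpcal4 and Ncs1, which is 4 of 8, were lower in the depressive pool of both tissues, against 34.9% of all genes, and 0 of 8 were higher in both, against 22.8%. The other 4 took opposite signs in the tissues, against 42.2% of all genes. With scanner files as linked, 7 of 8 passed the test between states, since that reading sets tissue against tissue.

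**Figure D4:**
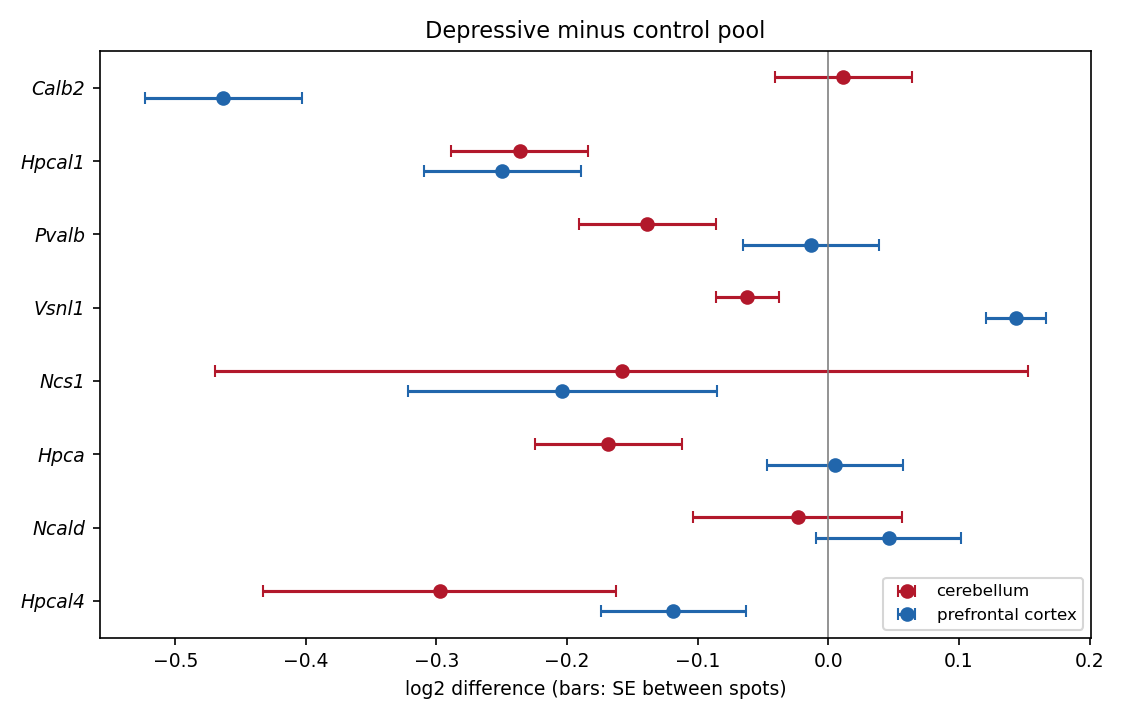
Depressive minus control pool for each gene (horizontal axis, log2 difference of levels), in cerebellum (upper point of each pair) and prefrontal cortex (lower point), with bars for the SE between spots. Calb2 in prefrontal cortex lies furthest from 0 at -0.46, and Hpcal1 lies at -0.24 and -0.25.

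Related genes of the same calcium pathways were set beside the 8. Of 17 other calcium sensors, 16 were on the array and 14 were fitted: 5 were higher in cerebellum, 7 were lower and 2 did not pass, with a median of -0.25. Calml4, a calmodulin-like gene, was higher at 2.49 (SE 0.26), by 7.75-fold in depressive and 4.06-fold in control pools. Guca1b, a guanylate cyclase activator known from the retina, was higher at 1.73. Kcnip2, a subunit of A-type potassium channels, was lower at -2.20 and Cabp1, a calmodulin relative of neurons, at -1.68. The other fitted sensors, the 3 calmodulin genes included, differed by less.

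Of 10 other calcium buffers 7 were fitted: 1 was higher in cerebellum, 4 were lower and 2 did not pass, with a median of -0.47. Calb1, calbindin of Purkinje cells, was higher at 2.58 (SE 0.05), which places it on the same side as Calb2 and Pvalb. Necab3, an EF-hand protein of neurons, was lower at -4.85, Efhd2 at -1.52 and Necab2 at -1.42. Scgn (secretagogin) and Necab1 were not well above background on the cerebellum arrays. Scgn was at least 74.8-fold lower in cerebellum in depressive pools and at least 70.3-fold lower in control pools. Necab1 was at least 77.3-fold lower in depressive pools and at least 75.9-fold lower in control pools. Such a bound takes the higher of the gene's own signal and the dimmest signal still well above background on the dim array.

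All 11 known partners of the sensors were fitted, of which 2 were higher in cerebellum, 8 were lower and 1 did not pass, with a median of -0.56. Chrna4, the nicotinic subunit on which Vsnl1 acts, was lower at -3.81, while Vsnl1 itself did not pass. Kcnq3, a subunit of the M-type potassium channel, was lower at -3.39, and Drd2, the dopamine receptor regulated through Ncs1, at -2.03. Kcnd2, a pore subunit of A-type potassium channels, was higher at 1.52. Between states 0 genes of each of these lists passed the test, and the list medians were -0.06 for sensors, -0.01 for buffers and -0.04 for partners, against -0.02 over all genes.

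**Figure D5:**
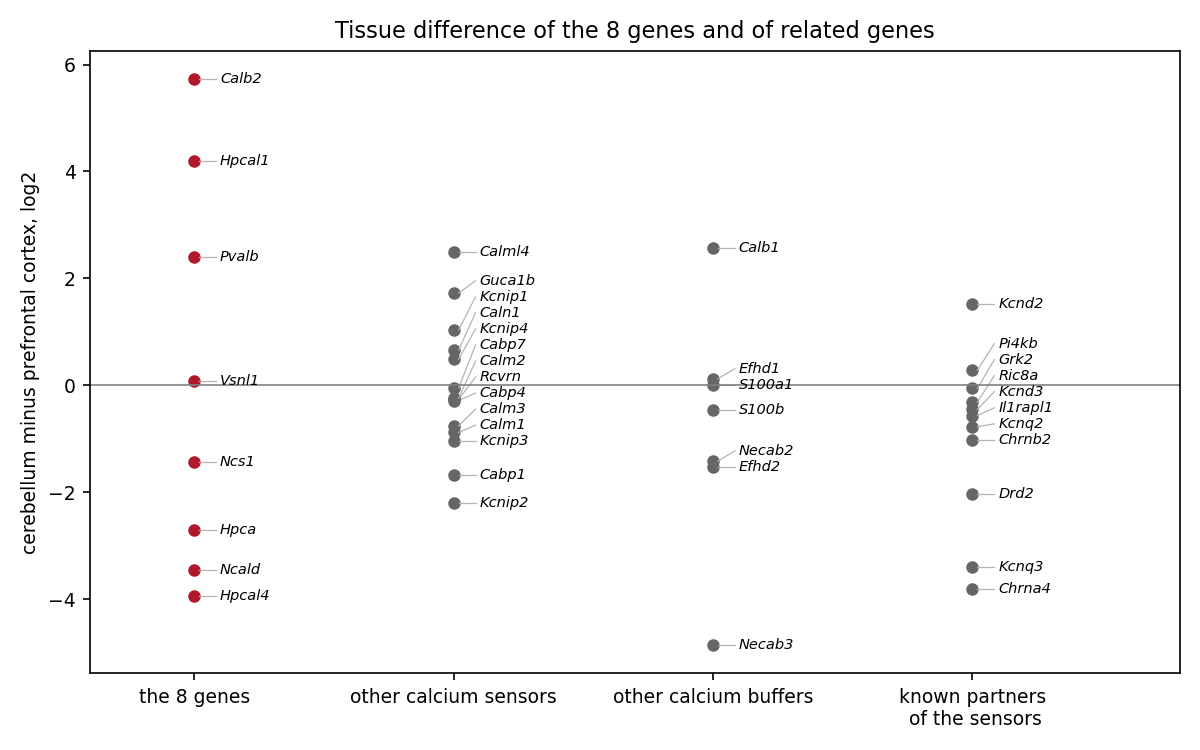
Fitted cerebellum minus prefrontal cortex difference (vertical axis, log2) of the 8 genes and of other calcium sensors, other calcium buffers and known partners, each point 1 gene. Calb2 at 5.73 and Hpcal1 at 4.20 lie above every fitted gene of the other lists, and Necab3 at -4.85 lies below every other point.

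For each gene, the genes whose pattern over the 4 arrays was most like it were sought, by Euclidean distance of levels centred on each gene's own mean, with 11624 genes as candidates. The nearest to Calb2 were Car8, a Purkinje cell gene (distance 0.145), and Irx1 (0.225), and 0 genes lay within 0.1. Hpcal1 was likewise set apart, with Fut1 at 0.154, Kcnk15 at 0.172 and 0 genes within 0.1. The nearest to Hpcal4 were Prr7 (0.0947) and Rasal1 (0.130), with 1 gene within 0.1.

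The nearest to Ncald were Lhx6 (0.0927), a gene of cortical interneurons, and Kcnq3 (0.0976), with 3 genes within 0.1. Those to Hpca were Klf16 (0.0266) and Ly6h (0.0761), and those to Pvalb were Zfp395 (0.0621) and Mcm6 (0.0624). Ncs1 lay nearest to Zfp523 (0.0561) and Fbxl16 (0.0605), with 15 genes within 0.1. Vsnl1 lay nearest to Zfp414 (0.0216) and Hibch (0.0225), with 231 genes within 0.1, as for a gene that hardly differs between arrays. Over 4 arrays and mostly 1 tissue contrast, likeness of pattern rests largely on the size of the tissue difference.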

How the data were processed

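The 8 genes and the lists of related and marker genes were chosen with earlier results of these data known. Per the labels' protocols, 400 ng of pooled RNA was labelled with Cy3. Per the file headers, the scans went through Agilent Feature Extraction 10.7.1.1 (protocol GE1_107_Sep09), and the deposited files give a background-subtracted processed intensity per spot. The 75th percentile of the array was 4369.5 in depressive and 4019.96 in control cerebellum, and 3278.06 in depressive and 3116.05 in control prefrontal cortex. Probes well above background numbered 22206 in depressive and 23759 in control cerebellum, and 23371 in depressive and 23124 in control prefrontal cortex, of 30367.

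Flagged spots (1 Vsnl1 spot in depressive cerebellum) and control spots were left out, log2 intensity was averaged over spots and the 75th percentile was subtracted. RefSeq accessions were matched to symbols with a GRCr8 gene table, which named 18355 probes of 15443 genes, and a gene was represented by its brightest probe. Genes were fitted with limma 3.58.1 (lmFit and eBayes, R 4.3.3) on tissue and state, with Benjamini-Hochberg adjustment over 11624 genes at 0.05. The fit was also run on simulated levels with independent noise on each array, which does not test whether pools can serve as replicates. The SE between spots, which is technical, came from the spread of repeat spots in 20 brightness bins. All 8 genes and, per gene, the 2 nearest were named, with up to 4 of each related list by size of tissue difference. Alternatives covered scaling, background correction, the deposited table of intensity values, files as linked, probes, filters, blocks and leaving out arrays.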

Additional observations from a re-analysis of the deposited data

Results flagged for a closer look

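For 4 of the 8 genes the depressive pool was higher than the control pool in 1 tissue and lower in the other. Calb2 was at 0.0114 in cerebellum and -0.4632 in prefrontal cortex on the log2 scale. Hpca was at -0.1685 in cerebellum and 0.0054 in prefrontal cortex. Ncald was at -0.0235 in cerebellum and 0.0463 in prefrontal cortex. Vsnl1 was at -0.0619 in cerebellum and 0.1437 in prefrontal cortex. The difference between tissues was not tested, since each tissue has 1 array per state. Opposite signs were found for 42.2% of all genes. The values of Calb2 in cerebellum, Hpca in prefrontal cortex and Ncald in both tissues were smaller than the SE between spots of like brightness. Both spot pairs of Ncald in prefrontal cortex were above 0, but they are technical repeats on the same arrays.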

How the results depend on the processing

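With arrays matched to the value table, 7 of 8 genes passed between tissues under every alternative except quantile normalization, which gave 8, and 0 of 8 passed between states under every alternative. Arrays were also left out in turn, in a fit of tissue alone without the state block. The lone array of a tissue was then taken to vary like the others. The tissue difference of Calb2 ran from 5.50 to 5.96 and that of Ncs1 from -1.53 to -1.33. For states no such fit was run. Replicate numbers are 1 throughout, so the block was state or tissue: without the state block 7 genes passed between tissues, and without the tissue block 0 passed between states. Over all genes, 6875 to 8908 passed between tissues (8459 as reported) and 0 to 5 between states, the 5 under normexp. All genes at 2-fold between states fell to 32 under normexp and 80 with the deposited table in cerebellum (219 as reported), and to 14 under normexp in prefrontal cortex (103 as reported). Under the other settings, the sign between states changed for Ncald in cerebellum in 3 of 5, and for Hpca and Pvalb in prefrontal cortex in 1 of 5 each, and the sign of Vsnl1 between tissues in depressive pools in 3 of 5.

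With scanner files as linked, tissue and state change places: 0 of 8 genes passed between tissues and 7 between states, 0 reached 2-fold between tissues in depressive or control pools and 7 between states in cerebellum or prefrontal cortex. The fitted tissue differences were then 0.0816 for Hpca, 0.21 for Hpcal4, 0.18 for Ncs1 and -0.0409 for Vsnl1, and the state differences 2.71, 3.94, 1.43 and -0.0869 for the same genes. Within depressive samples the tissue difference was 0.12 for Hpcal4 and 0.20 for Ncs1. Within control samples it was -0.0114 for Calb2, 0.17 for Hpca, 0.30 for Hpcal4, 0.0235 for Ncald and 0.16 for Ncs1. Normexp on mean signals was not run, since the files hold median signals, which were used in its place after the data were seen. All 8 genes were well above background, and background correction moved Ncs1 between tissues to -1.09 (-1.43 as reported).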
